A study of Homo sapiens with 8 samples.

Results

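The 9 desmosome genes described here are DSG2, DSG3, DSC2, DSC3, DSP, JUP, PKP1, PKP2 and PKP3. They were picked by symbol from the 58302 genes of the deposited count table, and all 9 were among the 18973 genes abundant enough to be tested. RNA was sequenced from tumours formed in mice by T24, an established line of human bladder cancer cells. Of 8 libraries, 4 came from control tumours (labelled control) and 4 from tumours of T24 cells with enforced DDR1 (labelled DDR1 over expression). DDR1 is a receptor tyrosine kinase that binds collagen. The labels give neither the vector or promoter that drove DDR1, nor the mouse strain, nor whether each library is a separate animal. Replicate numbers 1 to 4 follow the order of the samples and pair nothing. The p-values below for DDR1 against control set the difference between groups against the spread of libraries within a group. Libraries may not be separate animals, so that spread may be technical.

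Desmosomes are junctions that bind epithelial cells to each other and anchor their intermediate filaments. Their adhesive part is made of desmosomal cadherins, the desmogleins (DSG) and desmocollins (DSC), which span the membrane and bind the cadherins of the neighbouring cell. Inside the cell, plakoglobin (JUP) and the plakophilins (PKP) hold the cadherin tails to desmoplakin (DSP), and desmoplakin holds the keratin filaments. In stratified epithelia such as urothelium and skin, which desmosomal cadherins and plakophilins are made changes with the cell layer.

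The 4 cadherin genes lie in one cluster on chromosome 18 (GRCh38, GENCODE 29). In the order of the chromosome these are DSC3 (ENSG00000134762, 30990008 to 31042815), DSC2 (ENSG00000134755, 31058840 to 31102522), DSG3 (ENSG00000134757, 31447795 to 31478702) and DSG2 (ENSG00000046604, 31498043 to 31549008). The desmocollins are on the minus strand and the desmogleins on the plus strand. The genes that lie between DSC2 and DSG3 (DSC1, DSG1 and DSG4) were near the floor in most libraries. DSC1 and DSG4 were below the filter, with highest values of 1.04 and 0.0949 CPM, and DSG1 reached 6.43 CPM in control replicate 2 and at most 1.77 CPM elsewhere. CPM is a gene's expected count per 1000000 counts of its library, with library sizes scaled by TMM, which corrects for composition.

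RefSeq windows of the 250 bases before a transcription start (GRCh38.p14) matched 7 of the 9 genes. The stretches before the 4 cadherin genes are shown because these neighbours differ in level within each pair, as described further on. Each is printed 5′ to 3′ on the strand of its gene and ends before the GENCODE gene. Capitals mark matches, on either strand, to the E-box CACCTG or the GC box GGGCGG, and a match on the other strand reads as the reverse complement. The stretches are chr18:31497927-31498042 (plus strand) for DSG2, chr18:31447491-31447740 (plus strand) for DSG3, chr18:31102523-31102671 (minus strand) for DSC2 and chr18:31042816-31042992 (minus strand) for DSC3.
DSG2: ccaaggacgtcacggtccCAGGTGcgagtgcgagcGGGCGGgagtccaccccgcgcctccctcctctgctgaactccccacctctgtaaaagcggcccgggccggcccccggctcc
DSG3: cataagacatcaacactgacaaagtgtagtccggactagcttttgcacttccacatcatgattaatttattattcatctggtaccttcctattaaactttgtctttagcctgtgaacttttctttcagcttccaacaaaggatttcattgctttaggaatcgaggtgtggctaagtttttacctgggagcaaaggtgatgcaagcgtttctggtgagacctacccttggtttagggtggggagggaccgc
DSC2: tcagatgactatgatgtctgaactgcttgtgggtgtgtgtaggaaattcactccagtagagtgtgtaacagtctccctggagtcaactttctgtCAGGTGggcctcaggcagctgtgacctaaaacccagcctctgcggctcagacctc
DSC3: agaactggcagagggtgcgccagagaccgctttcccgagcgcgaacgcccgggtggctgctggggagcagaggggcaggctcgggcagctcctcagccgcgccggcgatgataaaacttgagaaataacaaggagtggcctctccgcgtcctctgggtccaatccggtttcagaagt

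Over the whole 250-base windows, the DSG2 promoter was GC-rich, with 75.2% GC and 26 CpG sites, while that of DSG3 had 42.8% GC and 4 CpG sites. The median over 35116 windows of all genes was 58.0% GC and 11 CpG sites. The DSC3 window had 60.4% GC, and the DSC2 window shown had 59.6%. DSP had the highest GC content of the matched genes, at 78.0%, with 33 CpG sites. CACCTG was found 2 times in the DSG2 window, 2 times in that of DSP, 2 times at one of the JUP starts and 1 time in the DSC2 window shown, and 17.5% of all windows hold it. GGGCGG was found 7 times in the DSP window and 2 times each in those of DSG2, the other JUP start and the other DSC2 start. It was found 1 time each in the PKP1 window and the DSC2 window shown, and 42.6% of all windows hold it. The DSG3 and DSC3 windows held neither of these. No window of any of the 7 matched genes held the AP-1 motif TGANTCA, which is in 6.57% of all windows. The grainyhead motif AACCGGTT (0.117% of windows) and the promoter motif TATAAA (10.7% of windows) were searched as well. Neither had a match in any window of these 7 genes. A match is a description of letters and not a measured site.

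As a check of the labels, DDR1 itself was 138, 110, 210 and 149 CPM in control replicates 1 to 4, and 159, 343, 427 and 810 CPM in DDR1 replicates 1 to 4. DDR1 replicate 1 lay inside the control range, and the other DDR1 libraries lay above it. The log2 fold change of DDR1 was 1.52 (SE 0.43, n = 4 and 4), with an edgeR quasi-likelihood p of 0.00612 and a Benjamini-Hochberg adjusted p of 0.9998. Totals ran from 13716286 expected counts in control replicate 4 to 32271031 in DDR1 replicate 1. All DDR1 libraries carry lane 8 in their titles, control replicates 1 and 2 carry lane 7, and control replicates 3 and 4 carry none, so lane and group cannot be told apart. Control replicates 3 and 4 share a title prefix, as do DDR1 replicates 2, 3 and 4.

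No desmosome gene passed the test between DDR1 and control tumours, and all 9 were read in every library of both groups. By edgeR's quasi-likelihood test, 0 of the 9 passed an adjusted p of 0.05, where 0% of all genes tested did, and 0 of the 9 had an unadjusted p under 0.05, where 4.17% of all genes did (1.93% in the higher direction). DESeq2 also called 0 of the 9, and 0.0899% of the genes it tested. By the sign of the fitted change, 7 were higher in DDR1 tumours and 2 (DSG3 and DSC2) were lower, against 49.5% of all genes higher. The median log2 fold change of the 9 was 0.24, beside 0.00 over all genes. The control and DDR1 ranges overlapped for all 9 genes, and 2.4% of all genes had ranges that did not overlap. In bulk tumours, fewer cells that make a gene and less RNA per cell cannot be told apart.

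**Figure D1:**
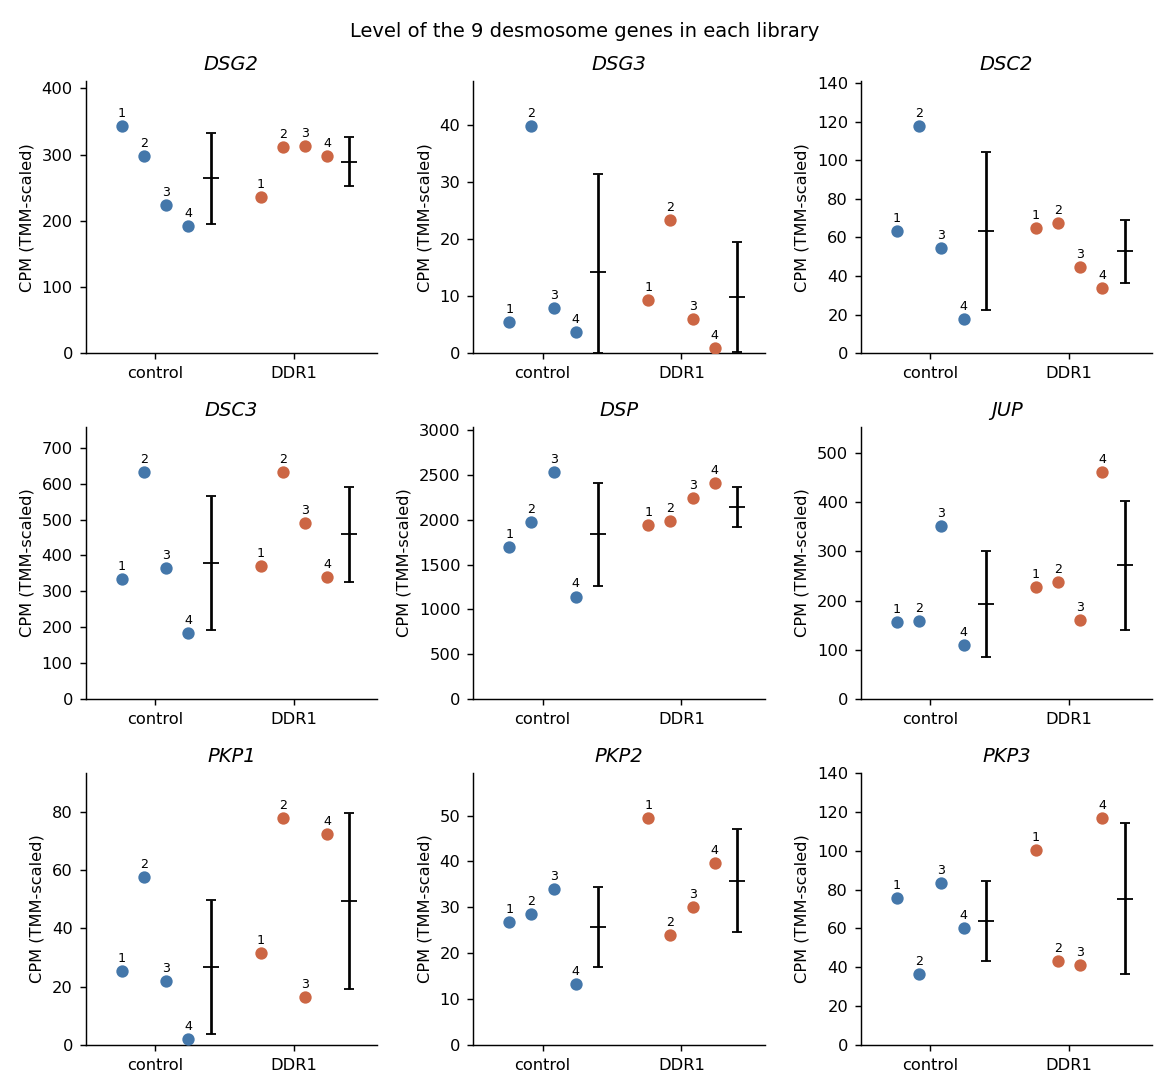
Level of each desmosome gene in CPM (vertical axes, from 0) in the 4 control and 4 DDR1 libraries. Points are single libraries with their replicate numbers, and the bars beside them are the mean and SD, cut at 0 where the SD exceeds the mean; the groups overlap in every panel, and control replicate 4 is the lowest point of 7 panels.

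Among the desmogleins, DSG2, the isoform found in nearly all desmosome-bearing tissues, was 342, 298, 223 and 192 CPM in control replicates 1 to 4 and 236, 311, 313 and 298 CPM in DDR1 replicates 1 to 4. It was the steadiest of the 9 genes, with a highest value 1.78 times its lowest. The DDR1 mean of 290 ± 36.2 CPM (SD, n = 4) lay within the spread of the control mean of 264 ± 68.5 CPM (SD, n = 4). Its log2 fold change was 0.13 with a 95% interval of -0.34 to 0.61, so a change of 2 times in either direction was outside it. DSG2 overlaps an annotated antisense gene, DSG2-AS1, and strand marking is not given in the sources used here.

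DSG3, the desmoglein of basal layers of stratified epithelium and the main antigen of pemphigus vulgaris, varied far more between libraries. It was 5.54, 39.8, 7.97 and 3.81 CPM in control replicates 1 to 4 and 9.31, 23.4, 5.95 and 0.850 CPM in DDR1 replicates 1 to 4. Control replicate 2 and DDR1 replicate 2 were the highest libraries, and the highest value was 46.8 times the lowest. DDR1 replicate 4 rests on 17 expected counts. The SD of its log2 CPM over the 8 libraries was larger than that of 97.2% of the genes tested. The log2 fold change was -0.53 with an interval of -2.62 to 1.56, and it was 0.78 without control replicate 2.

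The libraries high in DSG3 were also those with genes of cornified epidermis. A list of 10 such markers summed to 170 CPM in control replicate 2 and 140 CPM in DDR1 replicate 2, and to 10.3 to 27.9 CPM in the other libraries. FLG, which encodes filaggrin, was 57.8 and 43.6 CPM in those libraries and at most 5.14 CPM elsewhere. KRT10, a keratin of differentiating keratinocytes, was 62.7 and 63.6 CPM there and 8.76 to 18.5 CPM elsewhere. Of the 10 markers, KRT2 and CDSN stayed under 1 CPM in every library. The part of these cells or of this gene programme in the DSG3 values was not tested.

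Among the desmocollins, DSC3, typical of the basal layers of stratified epithelium, was 336, 632, 364 and 185 CPM in control replicates 1 to 4 and 371, 632, 491 and 340 CPM in DDR1 replicates 1 to 4. Control replicate 2 and DDR1 replicate 2 were highest, as for DSG3, and control replicate 4 was lowest. The means were 379 ± 186 CPM in controls and 459 ± 133 CPM in DDR1 tumours (SD, n = 4 each), and the log2 fold change was 0.27 (95% interval -0.52 to 1.07).

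DSC2, the most widely made desmocollin, was 63.4, 118, 54.8 and 17.9 CPM in control replicates 1 to 4 and 65.0, 67.5, 44.7 and 33.7 CPM in DDR1 replicates 1 to 4. Control replicate 4 was again lowest, and control replicate 2 highest. For DSC2 the log2 fold change was -0.27 (95% interval -1.32 to 0.78). Its sign turned without control replicate 2, when it was 0.22. DSC2 overlaps DSCAS, an annotated gene on the other strand.

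Of the plaque genes, DSP (ENSG00000096696, chromosome 6, 7541575 to 7586717, plus strand) encodes desmoplakin, the link to the keratin filaments. It was 1692, 1976, 2530 and 1144 CPM in control replicates 1 to 4 and 1936, 1990, 2237 and 2412 CPM in DDR1 replicates 1 to 4. The DDR1 libraries lay within the control range and closer together, with an SD of 222 CPM against 578 CPM. The log2 fold change was 0.22 (95% interval -0.33 to 0.78), which leaves out a change of 2 times in either direction.

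JUP (ENSG00000173801, chromosome 17, 41754604 to 41786931, minus strand) encodes plakoglobin, an armadillo protein shared by desmosomes and adherens junctions. It was 156, 158, 351 and 109 CPM in control replicates 1 to 4 and 228, 237, 161 and 461 CPM in DDR1 replicates 1 to 4. Control replicate 3 and DDR1 replicate 4, the highest library of each group for JUP, were also the highest of each group for DSP. The log2 fold change was 0.49 (95% interval -0.44 to 1.41, unadjusted p = 0.265 by edgeR). It was 0.95 without control replicate 3 (edgeR unadjusted p = 0.0271, not passing after adjustment) and 0.13 without DDR1 replicate 4.

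Among the plakophilins, PKP3 (ENSG00000184363, chromosome 11, 392614 to 404908, plus strand), made through all layers of many epithelia, was 75.6, 36.6, 83.3 and 60.4 CPM in control replicates 1 to 4 and 100.3, 43.2, 41.0 and 117 CPM in DDR1 replicates 1 to 4. Its lowest library was control replicate 2, the highest for DSG3 and DSC2. For PKP3 the log2 fold change was 0.24 (95% interval -0.63 to 1.11), and -0.04 without DDR1 replicate 4.

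PKP1 (ENSG00000081277, chromosome 1, 201283452 to 201332993, plus strand), the plakophilin of differentiating layers of stratified epithelium, was 25.3, 57.5, 21.9 and 2.06 CPM in control replicates 1 to 4 and 31.5, 77.9, 16.4 and 72.2 CPM in DDR1 replicates 1 to 4. The highest value was 37.9 times the lowest, and 97.4% of genes tested had a smaller SD of log2 CPM. It had the highest fitted change of the 9 genes, a log2 fold change of 0.89, but the interval ran from -0.85 to 2.62 (unadjusted p = 0.280 by edgeR). The change was 0.26 without the controls that carry no lane and 2.08 without those of lane 7.

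PKP2 (ENSG00000057294, chromosome 12, 32790745 to 32896840, minus strand), found in simple and stratified epithelia and in heart muscle, was 26.8, 28.6, 33.9 and 13.3 CPM in control replicates 1 to 4 and 49.5, 24.04, 30.2 and 39.7 CPM in DDR1 replicates 1 to 4. It had the smallest unadjusted p of the 9 genes by edgeR, 0.154, with a log2 fold change of 0.48 (95% interval -0.22 to 1.18). PKP2 overlaps AC087588.1 on the other strand and AC087588.2 on the same strand, so its counts are uncertain.

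**Figure D2:**
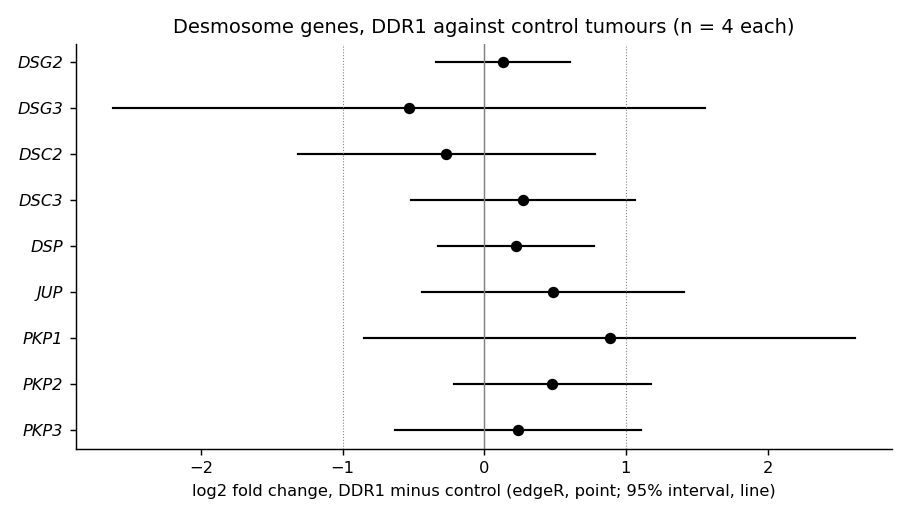
Log2 fold change of each desmosome gene, DDR1 minus control (horizontal axis), with the edgeR estimate as a point and its 95% interval as a line; dotted lines mark a change of 2 times. All 9 intervals include 0, and those of DSG2 and DSP lie within the dotted lines.

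Of the 9 intervals, 3 left out a rise of 2 times and 7 left out a fall of 2 times. The interval of DSG3 included both a rise and a fall of more than 2 times. Those of DSC3, JUP, PKP1, PKP2 and PKP3 included both 0 and a rise of more than 2 times.

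Levels of different genes were compared per kilobase of the union of each gene's exons. DSP stood first, at 197 ± 43.3 CPM per kb (SD over the 8 libraries). It was followed by DSC3 at 59.3 ± 22.03, JUP at 47.1 ± 23.9 and DSG2 at 44.7 ± 8.49 CPM per kb. PKP3 was in the middle at 18.4 ± 7.79 CPM per kb. PKP1 (6.13 ± 4.46), DSC2 (4.65 ± 2.36), PKP2 (4.37 ± 1.53) and DSG3 (2.19 ± 2.36 CPM per kb) were lowest. Neighbours in this order differed beyond the SD of their log2 ratio at 3 steps. DSP exceeded DSC3 in 8 of 8 libraries, DSG2 exceeded PKP3 in 8 of 8, and PKP3 exceeded PKP1 in 7 of 8. The steps DSC3 to JUP and JUP to DSG2, and those between neighbours among the last 4 genes, were not beyond that spread. Only neighbours were compared in this way. DSC2 exceeded DSG3 in 8 of 8 libraries, beyond that spread, per kilobase of the longest transcript, under which they were neighbours. Per kilobase of coding sequence DSC3 came to 156 and DSC2 to 21.5 CPM per kb, with 2703 coding bases of 12495 exonic ones in DSC2 and 2688 of 7056 in DSC3, and the first 5 places did not change. Per kilobase of the longest transcript, JUP (66.5) and DSC3 (60.01 CPM per kb) exchanged places 2 and 3, and PKP2 moved from place 8 to place 6.

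**Figure D3:**
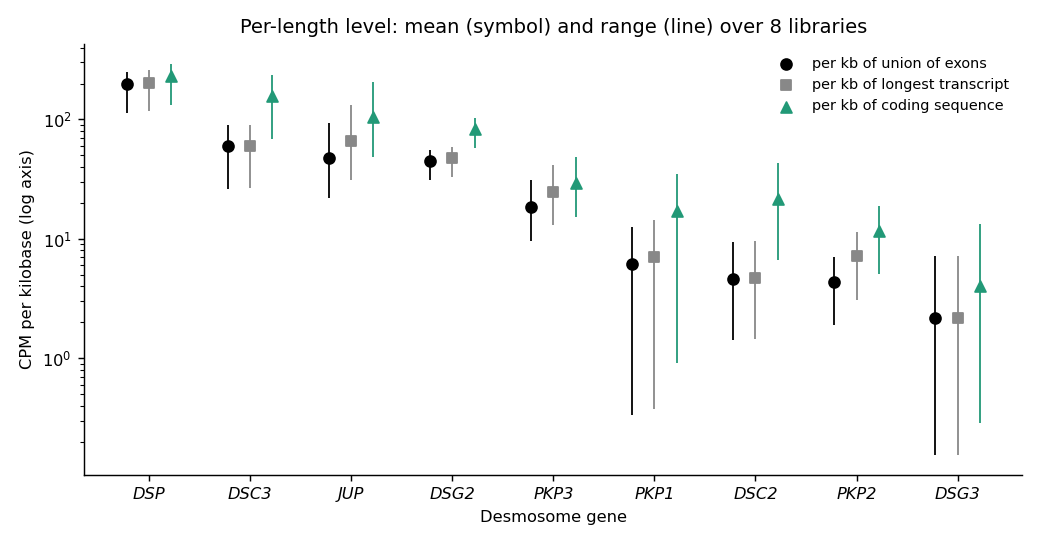
Per-length level of each desmosome gene in CPM per kilobase (log axis), as the mean over the 8 libraries (symbol) with the lowest and highest library (line), for 3 definitions of gene length. DSP is highest and DSG3 lowest under each definition.

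One desmocollin and one desmoglein carried most of the RNA of their class, while the plakophilins were mixed. DSC3 made up 90.4 to 95.1% of the desmocollin level per length (DSC2 and DSC3) in the 8 libraries, with means of 92.0 ± 2.07% in controls and 93.8 ± 1.89% in DDR1 tumours (SD, n = 4 each). DSG2 made up 87.0 to 99.7% of the summed level of DSG2 and DSG3 (DSG1 was not in this sum), and its lowest share was in control replicate 2. Of the plakophilins, PKP3 made up 41.7 to 87.8%, PKP1 1.82 to 45.8% and PKP2 10.4 to 24.1%. The lowest PKP3 shares, 42.1 and 41.7%, were in control replicate 2 and DDR1 replicate 2, where PKP1 was 40.3 and 45.8%. These are the libraries with the epidermal markers. PKP1 was not high only there: in DDR1 replicate 4 it was 72.2 CPM and 24.2% of the plakophilins, while those markers summed to 16.9 CPM. DSP made up 46.7 to 56.3% of the summed per-length level of the 9 genes, with means of 51.9 ± 3.54% in controls and 50.9 ± 3.79% in DDR1 tumours. These shares are per kilobase of exon union and depend on the length used. Per kilobase of coding sequence, DSP made up 30.4 to 40.1% and DSC3 84.2 to 91.7% of these sums. By that length PKP1 was 49.5 and 56.1% in control replicate 2 and DDR1 replicate 2, and PKP3 29.6 and 29.2%.

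Ratios within a library, which scaling cannot change, gave no difference between the groups that passed the test. The log2 ratio of DSC3 to DSC2 was 3.56 ± 0.45 in controls and 3.96 ± 0.43 in DDR1 tumours (SD, n = 4 each), a difference of 0.40 (two-sided exact permutation p = 0.286). PKP1 to PKP3 was -2.65 ± 2.27 and -1.42 ± 1.12, with an exact permutation p of 0.343. The differences were -0.81 for DSG3 to DSG2, 0.37 for PKP2 to PKP3 and 0.25 for JUP to DSP. Single libraries moved these by more than 1.5 times. Without control replicate 4, PKP1 to PKP3 was 0.24 and PKP2 to PKP3 0.08, and without control replicate 2 they were 2.09 and 0.69. PKP2 to PKP3 was also 0.19 without DDR1 replicate 3 and 0.56 without DDR1 replicate 4, and PKP1 to PKP3 was 0.71 without DDR1 replicate 2. JUP to DSP was 0.01 without DDR1 replicate 4 and 0.48 without DDR1 replicate 3. Leaving out a control moved it to 0.14 (replicate 2) or 0.41 (replicate 3). DSC3 to DSC2 was 0.61 without DDR1 replicate 1 and also 0.61 without control replicate 4. DSG3 to DSG2 ran from -1.45 without DDR1 replicate 2 to 0.12 without DDR1 replicate 4, and was -0.17 without control replicate 2. Adjusted over the 5 ratios, every exact permutation p was 0.6, and 4 against 4 libraries cannot give a p below 0.0286.

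One control library was low across the family. Control replicate 4 had the lowest value of 7 of the 9 genes, while it was the lowest library for 11.7% of all genes tested. The exceptions were DSG3 and PKP3. Averaged over the 9 genes, the z-score of log2 CPM was -1.54 in control replicate 4 and between -0.05 and 0.38 in the other 7 libraries, and 0 of the 9 genes were above their own mean in it. This library also has the smallest total of expected counts, and 15.0% of its counts came from genes transcribed by RNA polymerase III, against 6.97 to 12.4% elsewhere. Its 6 muscle markers summed to 42.0 CPM, against 11.6 to 25.4 CPM elsewhere. MYH2, a skeletal muscle myosin, was 21.6 CPM there and at most 3.27 CPM elsewhere, while DES, ACTA1, CKM and MYL1 were under 1 CPM in every library and MYH11, at 18.8 CPM, was within the range of the others. Of the 12 intermediate filament genes tested, 7 had their lowest value there as well. KRT5 was 707 CPM against 1611 to 4013 CPM elsewhere, and KRT17 was 1085 CPM against 2337 to 3599 CPM. KRT7, KRT8, KRT18, KRT16 and VIM did not have their lowest value there, and KRT7, at 497 CPM, was the second highest of the 8 libraries. The part of these features in the desmosome values was not tested. Without control replicate 4 the median log2 fold change of the 9 genes was 0.07 in place of 0.24.

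**Figure D4:**
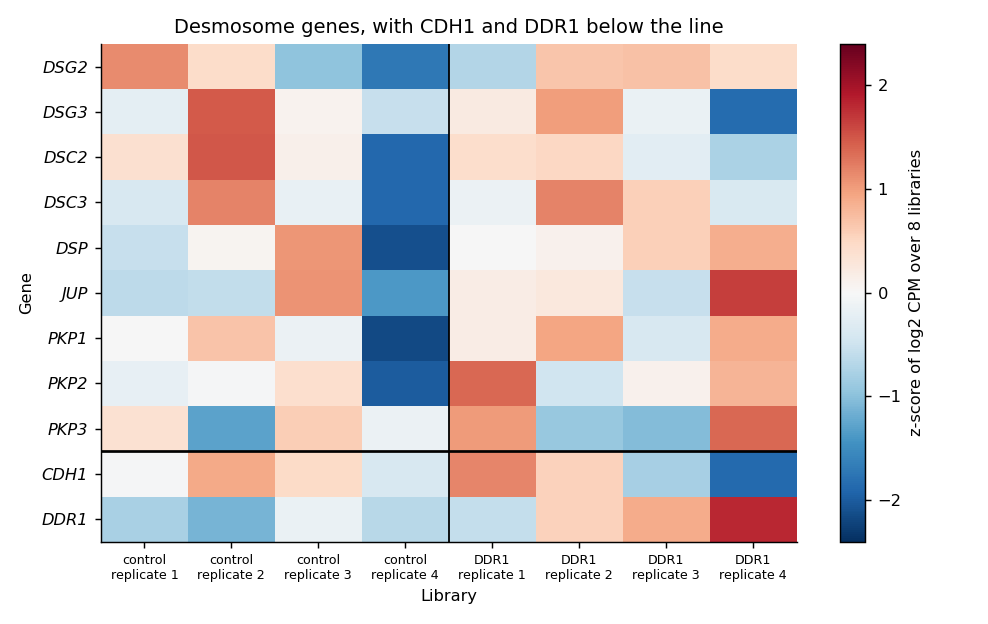
Log2 CPM of the 9 desmosome genes, with CDH1 and DDR1 below the line, as z-scores over the 8 libraries (colour scale, red above and blue below the gene's mean). Control replicate 4 is blue for all 9 desmosome genes, and the DDR1 libraries do not form a common block.

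Across the 8 libraries, the desmosome genes tended to vary together, but this rested on control replicate 4. Of the 36 pairs, 29 had a positive Pearson r of log2 CPM, with a median of 0.47. By exact permutation 7 pairs had an unadjusted p under 0.05 and 0 passed after adjustment over the 36 (smallest adjusted p 0.226). By Spearman's rho 4 pairs did so before adjustment and 0 after. Without control replicate 4, 16 of 36 pairs were positive and the median was -0.05. Leaving out any other single library left 29 or 30 positive.

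Without control replicate 4 the pairs parted by role. Of the 6 pairs of desmosomal cadherins, 5 stayed positive (median r 0.44), and of the 10 pairs of plaque genes 7 did (median 0.32). Of the 20 pairs of a cadherin with a plaque gene, 4 were positive (median -0.46), and the lowest was DSC3 with PKP3 at -0.90. This grouping was made after the values were seen and has no test.

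**Figure D5:**
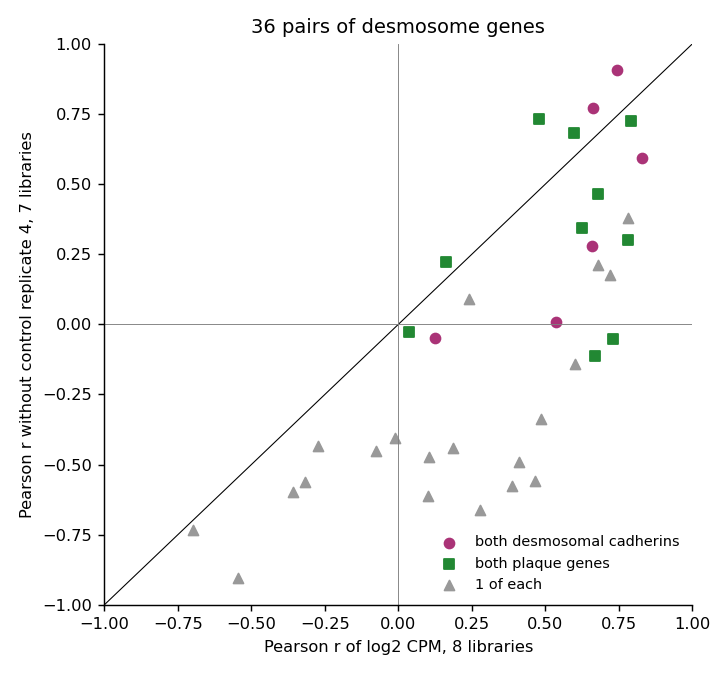
Pearson r of log2 CPM for the 36 pairs of desmosome genes over 8 libraries (horizontal axis) and over 7 libraries without control replicate 4 (vertical axis), with the diagonal of equal values. Pairs of a cadherin with a plaque gene (triangles) fall mostly below 0 on the vertical axis, with 4 of 20 above it.

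The neighbouring genes DSC2 and DSC3 had r = 0.83 (exact permutation p = 0.0182, adjusted 0.226) and rho = 0.74 (exact permutation p = 0.0458). Without the 2 libraries farthest from the median of DSC2, control replicates 2 and 4, r was 0.29, so the relation rests on them. DSP and JUP, which meet in the plaque, had r = 0.79 (exact permutation p = 0.0162, adjusted 0.226) and rho = 0.86 (exact permutation p = 0.0107, adjusted 0.185). Without the 2 farthest libraries, control replicates 3 and 4, r was 0.64. DSG3 and DSC2 had r = 0.74 (exact permutation p = 0.0400, adjusted 0.226) and rho = 0.90 (exact permutation p = 0.00456, adjusted 0.164). Their r was 0.67 without the 2 farthest libraries. All 7 negative pairs held PKP3 or DSG3.

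CDH1, which encodes E-cadherin of the adherens junction, was 36.8, 120.0, 67.9 and 23.7 CPM in control replicates 1 to 4 and 167, 77.2, 14.04 and 3.65 CPM in DDR1 replicates 1 to 4. Its log2 fold change was 0.07 (SE 0.94), and it spread more widely in the DDR1 group. DSP was 2237 and 2412 CPM in the libraries where CDH1 was lowest, DDR1 replicates 3 and 4. In control replicate 4, the next lowest for CDH1, DSP had its own lowest value, 1144 CPM. DSG3 followed CDH1 most closely of the 9 genes, with r = 0.85 (exact permutation p = 0.00742, adjusted 0.133 over the 18 pairs with CDH1 or DDR1) and rho = 0.86 (exact permutation p = 0.0107, adjusted 0.138). That r was 0.60 without the 2 farthest libraries. DSP had r = -0.09 with CDH1 (exact permutation p = 0.817). JUP had r = 0.64 with DDR1 (exact permutation p = 0.0945, adjusted 0.567), which was 0.29 without DDR1 replicate 4 and 0.35 without the 2 farthest libraries. None of the 18 pairs passed after adjustment.

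The genes around the desmosome were read from the same fit, as counts of members in each direction. Over all genes tested, 49.5% were higher in DDR1 tumours and 4.17% had an edgeR unadjusted p under 0.05. Of other desmosome and associated genes, 8 of 10 were tested, 4 higher and 4 lower in DDR1 tumours, with 0 passing after adjustment and a median log2 fold change of 0.09. PPL, which encodes the plakin periplakin, was 344 ± 106 CPM in controls and 566 ± 231 CPM in DDR1 tumours (SD, n = 4 each; edgeR unadjusted p = 0.0581). PERP, a membrane protein of desmosomes, was 276 ± 73.6 and 347 ± 30.1 CPM. PKP4 was 65.1 ± 17.5 and 58.1 ± 24.03 CPM. CTNND1, p120-catenin, was 295 ± 51.6 and 291 ± 22.2 CPM.

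Of the 11 adherens junction genes 4 were higher and 7 lower, with 0 passing and a median of -0.10. CTNNB1, beta-catenin, the close relative of plakoglobin, was 433 ± 79.6 CPM in controls and 333 ± 82.4 CPM in DDR1 tumours (edgeR unadjusted p = 0.116). CTNNA1 was 357 ± 102 and 361 ± 23.4 CPM, and VCL, vinculin, was 552 ± 137 and 508 ± 22.6 CPM.

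Of 14 intermediate filament genes 12 were tested, 11 higher and 1 lower, against 49.5% of all genes higher. Their median log2 fold change was 0.49, and 0 passed after adjustment. By edgeR 1 (KRT19) had an unadjusted p of 0.0363, and 4.17% of all genes were under 0.05. Control replicate 4 had the lowest value of 7 of the 12. KRT17 was 2548 ± 1108 CPM in controls and 2614 ± 89.3 CPM in DDR1 tumours. KRT5 was 2013 ± 912 and 2785 ± 982 CPM, and KRT14 was 433 ± 417 and 1016 ± 1014 CPM. VIM, which encodes vimentin of mesenchymal cells, was 426 ± 167 and 608 ± 408 CPM. The SDs of KRT5, KRT14 and VIM overlapped between groups. Keratin genes are close copies of each other, so reads may be split between them.

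Of the 9 hemidesmosome genes, which tie epithelial cells to the basement membrane, 5 were higher and 4 lower, with 0 passing and a median of 0.00. PLEC was 1256 ± 356 CPM in controls and 1711 ± 1583 CPM in DDR1 tumours, DST 1412 ± 330 and 1446 ± 367 CPM, and ITGA6 1198 ± 358 and 1201 ± 441 CPM.

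Of 16 regulators linked to junction genes 12 were tested, 9 higher and 3 lower, against 49.5% of all genes higher. After adjustment 0 passed. By edgeR 1 (ZEB2) had an unadjusted p of 0.0242, and 4.17% of all genes were under 0.05. ZEB2, a repressor of epithelial cadherins, was lower in DDR1 tumours by value, at 22.9 ± 9.53 CPM in controls and 9.95 ± 5.30 CPM in DDR1 tumours. TP63, the master regulator of basal epithelium, was 185 ± 35.3 CPM in controls and 231 ± 123 CPM in DDR1 tumours. KLF5 was 137 ± 78.3 and 176 ± 43.8 CPM. SNAI2, another such repressor, was 61.2 ± 6.87 and 79.8 ± 31.6 CPM. ZEB1, a further one, was 21.6 ± 5.63 and 29.2 ± 1.88 CPM, and its groups did not overlap (edgeR unadjusted p = 0.0719).

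Of the 6 genes of desmosome turnover and signalling 4 were higher and 2 lower, with 0 passing, against 49.5% of all genes higher. EGFR, a receptor kinase whose activity is known to loosen desmosomes, was 383, 403, 336 and 359 CPM in control replicates 1 to 4 and 481, 519, 494 and 634 CPM in DDR1 replicates 1 to 4. The groups did not overlap, as for 2.4% of all genes tested. The log2 fold change of EGFR was 0.52 (SE 0.16, edgeR unadjusted p = 0.00830, adjusted p = 0.9998). The proteases ADAM10 and ADAM17, which can shed cadherins, had log2 fold changes of 0.34 and -0.35.

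The genes most like the family were found by correlating each of 11885 other genes of at least 5 CPM on average with the mean z-score of the 9, over the 8 libraries. These are descriptions with no p. The highest r was 0.98 for TMEM47, a junction-associated membrane protein, followed by AC233968.1 (0.97), PRPS2 (0.95), NUBP1 (0.95), RBBP9 (0.94), FOPNL (0.94), RPL14P1 (0.94) and ZADH2 (0.93). TMEM47 was 18.9 CPM in control replicate 4 and 38.5 to 55.0 CPM in the other 7 libraries. All 8 of these genes had their lowest value in control replicate 4. The way they were picked favours this, because the mean z-score was -1.54 in that library and -0.05 to 0.38 in the others. It is therefore no separate evidence that these genes vary with the family. Among the 9 desmosome genes themselves, PKP1 was closest to the family mean (r = 0.95) and DSP next (0.85), while DSG3 (0.28) and PKP3 (0.08) were farthest. Each of the 9 is itself part of that mean, which raises its r, so these values are not comparable with those of the outside genes.

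Markers of other cell types the tumours could hold summed to less than the list for T24 and urothelial carcinoma. The sums do not give the content of mouse host cells. The 10 markers of T24 and urothelial carcinoma summed to 1260 to 3680 CPM per library. Most of this came from KRT7, KRT8, KRT18, KRT19 and VIM, and VIM, also a gene of mesenchymal cells, was 150 to 1096 CPM. UPK1A and UPK3A, markers of differentiated urothelium, stayed under 1 CPM in every library, and UPK2 was at most 1.84 CPM. Over the 8 libraries GATA3 averaged 5.1 CPM and PPARG 16.6 CPM. The sum is therefore no measure of urothelial identity. Fibroblast markers (6) summed to 3.65 to 44.0 CPM, endothelial markers (5) to 8.61 to 76.1 CPM and leukocyte markers (6) to 13.3 to 47.0 CPM, with COL1A2, DCN, LUM, KDR, EMCN and PTPRC under 1 CPM throughout. The highest members of these lists were CDH5 (up to 51.1 CPM), CD68 (up to 46.3 CPM), COL3A1 (up to 26.8 CPM) and COL1A1 (up to 22.6 CPM). Host mouse RNA can be read as human where the sequences are alike, and its share in the desmosome values was not tested.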

How the data were processed

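RNA of 8 tumour libraries, 4 control and 4 DDR1, was analysed, grouped by the condition label. Per gene, the authors deposited estimated counts (RSEM expected counts), made with STAR 2.7.5 and RSEM 1.3.1 on GRCh38 after FastQC 0.11.9 and Trim Galore 0.6.4, per the submitters' processing notes. The sources used here do not state strand marking, the annotation or a removal of mouse reads. Of the 58302 gene identifiers, 58039 matched GENCODE 29. The authors also deposited TMM values that are already on a log2 scale (within a library, value minus log2 count had an SD of at most 0.00246 for abundant genes), so these were used without a further log, in one alternative.

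Expected counts were rounded (26.5% of those above 0 were not whole). Genes were kept by filterByExpr with a minimum count of 10 and library sizes were scaled by TMM. DDR1 was tested against control by quasi-likelihood in edgeR 4.0.16 (limma 3.58.1, R 4.3.3) over all 8 libraries with no covariate, with Benjamini-Hochberg adjustment over 18973 genes and a threshold of 0.05. The scripts were tested on simulated data. Log2 CPM used a prior count of 2. Ratios and correlations used exact permutation tests. Alternatives were other scalings, DESeq2 1.42.0, limma, other filters and lengths, and left-out libraries.

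The 9 genes and the gene lists were chosen with earlier results of these data known. The text names the 9, DDR1, CDH1, the 4 most abundant genes of each related list, and the 8 genes most like the family. One gene that this rule names is not reported here. KRT19, ZEB2, other keratins and single cell type markers (such as FLG and MYH2) and the genes between DSC2 and DSG3 were named after their values were seen.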

Additional observations from a re-analysis of the deposited data

Results flagged for a closer look

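DSG3 in control replicate 2 stood apart from its group. It was 39.8 CPM there and 3.81 to 7.97 CPM in the other 3 controls, so the gap to the nearest control was 0.884 of the group's range, over Dixon's 95% limit for 4 samples. This was 1 of 28 groups of 4 looked at, and chance gives about 1 in 20. The cornified epidermis markers were 170 CPM in this library and 10.3 to 13.6 CPM in the other controls, and their part in the DSG3 value was not tested.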

How the results depend on the processing

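No paired analysis was possible because the labels carry no replicate numbers shared between the groups. Over 20 alternative settings, 0 of the 9 desmosome genes passed the adjusted threshold in each. DESeq2 called 16 genes over all genes where edgeR called 0 (791 at an unadjusted p under 0.05), and none of the 16 was a desmosome gene. At an unadjusted p under 0.05, leaving out 1 library gave 0 to 1 desmosome genes (JUP, without control replicate 3), and leaving out the controls of lane 7 gave 1 (DSG2, edgeR unadjusted p = 0.0429). The sign of the log2 fold change turned in these cases, and the cause was not tested. Without control replicate 2, DSG3 was 0.78 and DSC2 0.22, and without the controls of lane 7 they were 0.78 and 0.57. Without the controls that carry no lane, DSG2 was -0.14 and DSC3 -0.0745. With libraries of one title prefix summed, DSG2 was -0.0583. Without DDR1 replicate 4, PKP3 was -0.0446 and the difference in the log2 ratio of DSG3 to DSG2 was 0.12. Leaving out libraries otherwise moved DSG3 to as low as -1.40 and its ratio to DSG2 to -1.45 (without DDR1 replicate 2), DSC2 to -0.77 (without the controls that carry no lane; -0.69 without DDR1 replicate 1 and control replicate 4, a setting added after seeing the data) and PKP3 to 0.448 (without DDR1 replicate 3). DSP, JUP, PKP1 and PKP2 kept their sign in all 20 settings, but DSP went from 0.22 to 0.07 and PKP2 from 0.48 to 0.28 without control replicate 4, and PKP2 to 0.07 without DDR1 replicate 1 as well. The median log2 fold change of the 9 genes ran from 0.07 without control replicate 4 to 0.41 without control replicate 2 over the single libraries left out, and was 0.57 without the controls of lane 7. Without both DDR1 replicate 1 and control replicate 4 the median was 0.09. Depth limits the lowest value, which rests on 17 expected counts of DSG3 in DDR1 replicate 4.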
